A study of Mus musculus with 9 samples.

Results

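The genes described here are those encoded by the mouse mitochondrial genome, chosen as every gene whose name begins with mt- in a table of expression values from mouse duodenum. The rule found 37 of the 54532 genes in the table: 13 mRNAs, 2 rRNAs and 22 tRNAs, which are also the 37 genes that the GENCODE M21 annotation places on this genome, with the same start, end and strand. RNA was measured in 9 libraries of duodenum tissue, 3 in each of 3 groups. Control libraries came from wild-type mice (WT) that received gluten stimulation which was not enhanced. CeD libraries came from mice of a celiac disease model built on delayed-type hypersensitivity (DTH), under enhanced gluten stimulation. CeD+GR libraries came from the same model under the same enhanced stimulation, with composite nanoparticles of gliadin and rapamycin given beforehand. Gliadin is the wheat protein fraction that drives the gluten response in celiac disease, and rapamycin inhibits the mTOR kinase. The labels give no strain, age or sex, do not say whether CeD and CeD+GR mice were also wild type, and they are silent on whether each library is a separate animal. The p-values therefore measure only the spread between these libraries.

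The mitochondrial genome is a small circular DNA that is present in many copies per cell. Its 13 mRNAs encode core subunits of the respiratory chain and of ATP synthase. Complex I (NADH dehydrogenase) takes its mt-Nd subunits from here, complex III its cytochrome b, complex IV (cytochrome c oxidase) its catalytic subunits, and complex V (ATP synthase) 2 membrane subunits. All other subunits of these complexes come from nuclear genes. The DNA is transcribed as long RNAs from both strands, called heavy and light. The mRNAs and rRNAs are released mostly where tRNAs between them are cut out, and the pieces are then stabilised or degraded at different rates. Most genes are read in 1 direction, and mt-Nd6 is the 1 mRNA read in the other, here called the light-strand mRNA (minus strand of the annotation), with 8 of the tRNAs. The absorptive cells of the duodenum are rich in mitochondria.

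The libraries held 15373260 to 16852104 reads assigned to genes. Markers of enterocytes, the absorptive epithelial cells, were detected in every library (11 of 11 genes), with a summed level of 9003 FPKM in CeD+GR 3 to 37400 FPKM in CeD 2. FPKM are fragments scaled to gene length and library size. Several libraries stood apart in markers of other cells. The summed level of 8 exocrine pancreas genes was 3193 FPKM in CeD 1 and 0 to 44.6 FPKM elsewhere. That of 6 gastric mucous and Brunner gland genes was 121321 FPKM in CeD+GR 3 and 0 to 46.6 FPKM elsewhere. The sum of 7 adipocyte genes was 477 FPKM in CeD+GR 2 and 46.5 to 110 FPKM elsewhere, and that of 7 Paneth cell genes was 1041 to 2087 FPKM in the 3 libraries numbered 1 and 74.3 to 175 FPKM in the other 6. The part of these differences in the mitochondrial levels was not tested. In bulk tissue, fewer cells of a type and less RNA per cell cannot be told apart.

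Nuclear chromosomes carry copies of mitochondrial DNA, and reads from a gene and an identical copy cannot be assigned with certainty. The annotated transcripts of GENCODE M21 (GRCm38, the mm10 build that the submitters' notes name) were therefore searched with the 37 mitochondrial genes. For 7 mRNAs, a copy with over 98% identity was annotated on chromosome 1, and the 7 copies lie there on the minus strand in the same order as on the mitochondrial genome. The copies of mt-Co2 (Gm28661, 681 aligned bases), mt-Atp6 (Gm10925, 678), mt-Co3 (Gm28437, 783) and mt-Nd4l (Gm10222, 294) had 100% identity over nearly the whole gene. The copy of mt-Nd3 (Gm28438) differed at 1 of 345 bases, T3C, where positions count from 1 at the first base of the gene and the base of the mitochondrial gene stands first. The copy of mt-Nd4 (Gm28439) was identical over 876 bases but covers only 63.6% of the gene, and that of mt-Co1 (Gm29216) covers 31.3%. Gm10222 was not among the copies listed beforehand and was found by this search.

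The first 60 bases of mt-Nd3 and of Gm28438 are shown because the single difference of that pair lies there (capital letter). The mitochondrial stretch is chrM:9459-9518 on the plus strand, and the copy is chr1:24613060-24613119 on the minus strand, both 5′ to 3′ in GRCm38 as GENCODE M21 gives them.
mt-Nd3: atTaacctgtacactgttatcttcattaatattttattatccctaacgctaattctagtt
Gm28438: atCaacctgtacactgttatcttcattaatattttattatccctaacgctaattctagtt
The first 60 bases of mt-Atp6 (chrM:7927-7986, plus strand) and of Gm10925 (chr1:24614592-24614651, minus strand) show a pair with no difference.
mt-Atp6: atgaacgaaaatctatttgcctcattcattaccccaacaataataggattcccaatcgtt
Gm10925: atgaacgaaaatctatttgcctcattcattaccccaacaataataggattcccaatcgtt
In contrast, mt-Cytb and its closest annotated copy Gm11410 on chromosome 4 differ at 82 of 1143 aligned bases (92.8% identity). The first 60 bases of mt-Cytb (chrM:14145-14204, plus strand) and of Gm11410 (chr4:80003989-80004048, plus strand) hold 3 of these differences, in capitals.
mt-Cytb: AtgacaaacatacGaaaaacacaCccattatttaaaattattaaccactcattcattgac
Gm11410: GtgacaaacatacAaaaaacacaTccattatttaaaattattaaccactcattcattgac
Copies of mt-Nd2, mt-Nd5 and mt-Nd6 also stayed below 98% identity (96.7%, 95.2% for the closest of mt-Nd5, Gm4076 over 954 bases, and 93.6%), as did a copy of the whole of mt-Co1 (Gm13340, 97.6%), and no annotated copy was found for mt-Nd1, mt-Atp8 or either rRNA at the 90% identity and 50 bases that the search required. mt-Atp8 lies between mt-Co2 and mt-Atp6, inside the stretch that the copies follow in order. The copies of mt-Co2 and mt-Atp6 also keep the spacing of their genes, which leaves an interval of the same length between them. The search found no annotated transcript that matches mt-Atp8, and the chromosome 1 sequence itself was not compared, so a copy there without annotation would not have been seen.

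The 37 genes together took 4.15% to 10.2% of the reads on genes. The 13 mRNAs took 4.004%, 9.77% and 5.36% in the 3 control libraries. In CeD they took 4.26%, 6.08% and 6.89%, and in CeD+GR 5.22%, 7.03% and 7.35%. Control 2 was the highest library and control 1 the lowest, so the control group spanned the range of the other 6 libraries, and in each group the library numbered 1 was the lowest. The libraries numbered 1 were also low in a list of small and noncoding nuclear RNAs kept as a sign of RNA quality, with a summed level of 13.3, 14.8 and 14.9 FPKM against 44.7 to 157 FPKM in the other 6. Of its 6 genes found, 4 were at 0 in every library, and the long noncoding RNA Gm26917 made up most of the sum in every library. The sum therefore follows 1 gene and cannot be read as a measure of RNA quality. What this sum has to do with the mitochondrial share was not tested. The group means were 6.38% ± 3.01 (SD, n = 3) in control, 5.75% ± 1.35 in CeD and 6.53% ± 1.15 in CeD+GR. The largest difference between these means, 0.79 percentage points between CeD+GR and CeD, was smaller than the SD within each group. The 95% counting interval (Wilson) of a single library's share reached at most 0.0144 percentage points to either side, so counting error, the only error it covers, is small beside the spread between libraries.

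**Figure D1:**
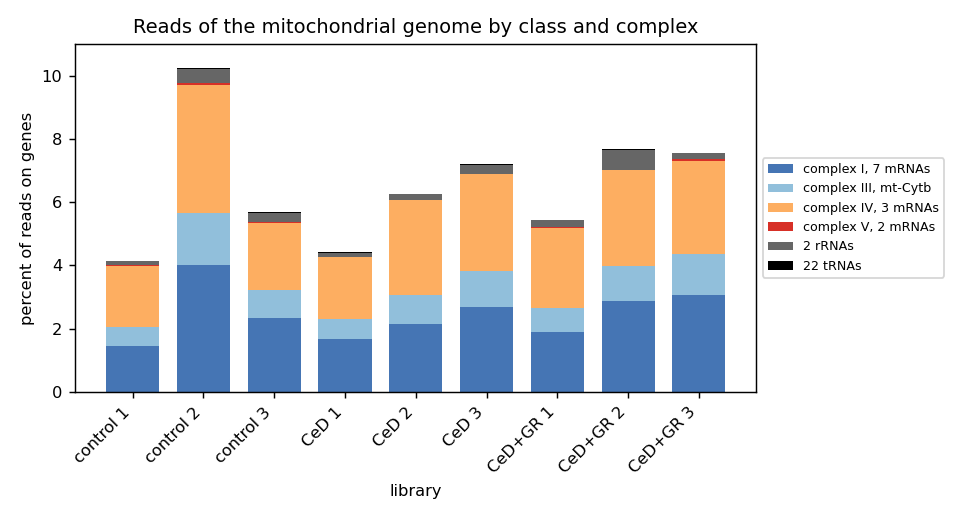
Percent of the reads on genes (vertical axis) that fell on mitochondrial mRNAs of each respiratory complex, on rRNAs and on tRNAs, stacked for each of the 9 libraries (horizontal axis). The bar of control 2 reaches 10.2% and those of control 1 and CeD 1 stay at 4.15% and 4.42%, and complexes I and IV make up most of every bar.

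Complex I mRNAs took 1.46% to 4.004% of the reads, the 3 complex IV mRNAs 1.94% to 4.07%, and mt-Cytb of complex III 0.585% to 1.64%. The 2 complex V mRNAs took 0.00571% to 0.0541% as counted. Only 15.7% to 75.7% of the reads of mt-Atp6 and its identical copy Gm10925 together were assigned to mt-Atp6. The complex V share therefore need not give how abundant these mRNAs were in the tissue. The rRNAs took 0.134% to 0.628%, after the removal of ribosomal RNA that the labels' protocol describes, and the tRNAs 0.0161% to 0.0379%. mt-Co1 had the highest FPKM of all genes in the table in 8 libraries and the second highest in CeD+GR 3, the library with the high gastric mucous genes.

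The level of the mRNAs per length split into 2 sets along the genome, a division made after the values were seen. The abundant set of 7 mRNAs, mt-Nd1, mt-Nd2, mt-Co1, mt-Nd4, mt-Nd5, mt-Nd6 and mt-Cytb, had 1617 to 28966 FPKM in any library and together made up 96.8% to 99.2% of the summed FPKM of the 13. The other 6 are neighbours from mt-Co2 to mt-Nd4l (chrM:7013-10173), namely mt-Co2, mt-Atp8, mt-Atp6, mt-Co3, mt-Nd3 and mt-Nd4l, and had 1.16 to 921 FPKM. From the lowest to the highest library, each of the 7 varied by 2.71-fold to 3.81-fold and each of the 6 by 4.24-fold to 19.7-fold. Of these 6, 5 are the genes whose near-identical copy covers almost the whole gene.

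**Figure D2:**
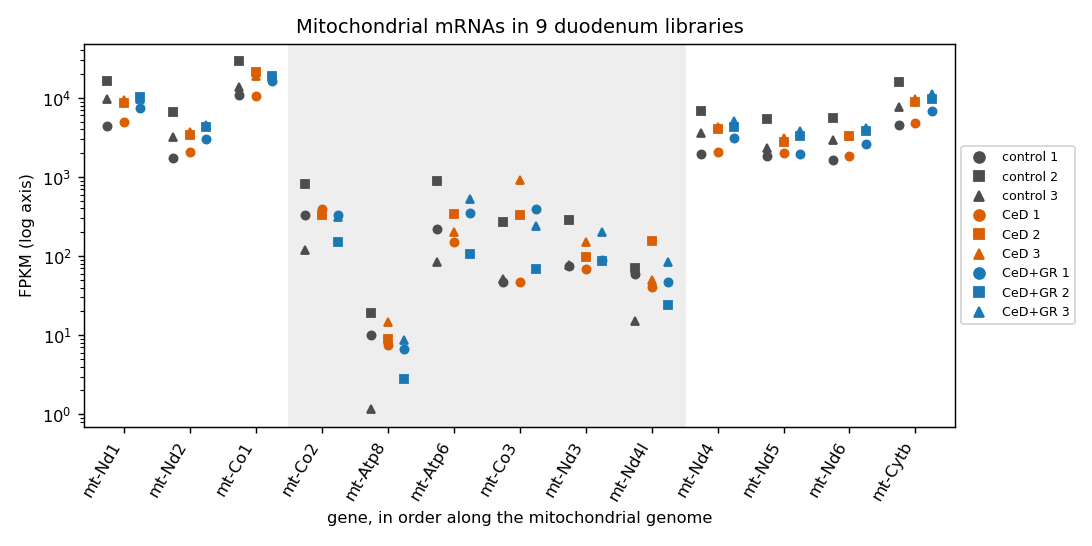
FPKM on a log axis of the 13 mitochondrial mRNAs in each library, with genes in their order along the genome, colours for groups and symbols for the library number. The shaded genes from mt-Co2 to mt-Nd4l lie at 1.16 to 921 FPKM, and the 7 others lie at 1617 FPKM or more.

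In complex IV, mt-Co1 (ENSMUSG00000064351, chrM:5328-6872) encodes the catalytic core subunit of cytochrome c oxidase. Its level was 10988, 28966 and 13665 FPKM in control, 10678, 21454 and 18718 FPKM in CeD, and 16418, 19078 and 18701 FPKM in CeD+GR. It was the highest mitochondrial mRNA in 9 of 9 libraries, and the control values enclosed all of the others except CeD 1. mt-Co2, which encodes the subunit that receives electrons from cytochrome c, had 335, 821 and 118 FPKM in control, 391, 329 and 362 FPKM in CeD, and 329, 149 and 308 FPKM in CeD+GR. mt-Co3, a structural core subunit, had 46.7, 267 and 51.0 FPKM in control, 46.9, 329 and 921 FPKM in CeD, and 389, 69.4 and 238 FPKM in CeD+GR. The 3 CeD values of mt-Co2 lay above the 3 CeD+GR values, although the closest pair both round to 329 FPKM, while for mt-Co3 every group held values several times apart.

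In complex III, mt-Cytb (chrM:14145-15288) encodes cytochrome b, which carries the quinone-binding sites. It had 4549, 15995 and 7757 FPKM in control, 4790, 8947 and 9604 FPKM in CeD, and 6874, 9594 and 11200 FPKM in CeD+GR. Control 2 was highest, as for mt-Co1, and control 1 lowest.

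In complex I, mt-Nd1 (chrM:2751-3707) encodes the subunit at the junction of the membrane arm and the peripheral arm, and had 4428, 16330 and 9732 FPKM in control, 4932, 8524 and 9301 FPKM in CeD, and 7371, 10225 and 9689 FPKM in CeD+GR. mt-Nd2, mt-Nd4 and mt-Nd5 encode the antiporter-like subunits of the membrane arm. mt-Nd2 had 1752, 6676 and 3201 FPKM in control, 2060, 3436 and 3753 FPKM in CeD, and 3007, 4299 and 4492 FPKM in CeD+GR. mt-Nd4 had 1976, 6849 and 3569 FPKM in control, 2059, 4103 and 4251 FPKM in CeD, and 3156, 4259 and 5078 FPKM in CeD+GR. mt-Nd5 had 1831, 5343 and 2326 FPKM in control, 2019, 2794 and 3129 FPKM in CeD, and 1952, 3298 and 3819 FPKM in CeD+GR. In all 3, control 2 was highest, control 1 was lowest, and the groups overlapped. mt-Nd6, a membrane subunit next to mt-Nd1 in the complex, had 1617, 5619 and 2963 FPKM in control, 1842, 3291 and 3301 FPKM in CeD, and 2618, 3785 and 4216 FPKM in CeD+GR. Its order of libraries matched that of its heavy-strand neighbours at both ends, with control 2 highest and control 1 lowest.

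The small membrane subunits of complex I lay far lower. mt-Nd3 had 74.0, 288 and 76.1 FPKM in control, 68.0, 96.9 and 152 FPKM in CeD, and 90.4, 86.5 and 204 FPKM in CeD+GR. mt-Nd4l had 59.0, 69.9 and 15.0 FPKM in control, 41.0, 154 and 49.4 FPKM in CeD, and 47.4, 24.4 and 83.6 FPKM in CeD+GR. The highest library was control 2 for mt-Nd3 and CeD 2 for mt-Nd4l, so these neighbours did not share it. mt-Nd4l overlaps mt-Nd4 by 7 bases on the same strand.

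In complex V, mt-Atp6 encodes the subunit of the proton channel and mt-Atp8 a small subunit beside it. mt-Atp6 had 218, 882 and 83.5 FPKM in control, 149, 337 and 201 FPKM in CeD, and 348, 107 and 521 FPKM in CeD+GR. mt-Atp8 was the lowest of the 13 mRNAs by mean (8.80 FPKM), with 9.96, 19.1 and 1.16 FPKM in control, 7.42, 8.84 and 14.6 FPKM in CeD, and 6.65, 2.80 and 8.69 FPKM in CeD+GR. The mt-Atp8 values rest on few reads, from 4 in control 3 to 57 in control 2. Both genes had their lowest value in control 3 and their highest in control 2. Their open reading frames overlap by 43 bases on 1 strand, and reads that lie across both cannot be assigned to either with certainty. How such reads were counted is not given in the sources used here.

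Ordered by the mean over the 9 libraries, the levels ran mt-Co1 (17629 FPKM), mt-Nd1 (8948), mt-Cytb (8812), mt-Nd4 (3922), mt-Nd2 (3631), mt-Nd6 (3250) and mt-Nd5 (2946). Some neighbours in this order were not separated: mt-Nd1 was above mt-Cytb in 5 of 9 libraries. mt-Nd4 was above mt-Nd2 in 7 of 9, and mt-Nd6 above mt-Nd5 in 7 of 9. mt-Co1 was above mt-Nd1, mt-Cytb above mt-Nd4, and mt-Nd2 above mt-Nd6 in 9 of 9. These levels are per length of the whole gene, although 63.6% of mt-Nd4 is identical to its copy Gm28439. If all its counted reads lay outside the copy, the mt-Nd4 mean would be 10767 FPKM, above those of mt-Nd1 and mt-Cytb. That of mt-Co1 would likewise be 25647 FPKM. Where these reads lie was not tested, so the place of mt-Nd4 in the order is uncertain. As a percent of the summed FPKM of the 13 mRNAs, the 7 kept narrow ranges, with mt-Co1 at 31.4% to 39.9%, mt-Nd1 at 15.8% to 22.3%, mt-Cytb at 16.1% to 19.1% and mt-Nd4 at 7.08% to 8.67%. mt-Co3, in contrast, ranged from 0.117% to 1.71%, and mt-Co2 from 0.270% to 1.34%.

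All 7 of the abundant mRNAs had their highest value in control 2, and in 6 of the 7 the lowest 2 libraries were control 1 and CeD 1. Among the 6 low mRNAs the extremes were elsewhere: 4 had their lowest value in control 3, which was neither highest nor lowest for any abundant mRNA.

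The nuclear copies of the low mRNAs were counted at levels of the same order as the genes, with means of 311 FPKM for Gm28661 against 349 for mt-Co2, 281 for Gm10925 against 316 for mt-Atp6, and 764 for Gm28437 against 262 for mt-Co3. The share of a pair's reads that was assigned to the mitochondrial gene differed widely between libraries. For mt-Co3 and Gm28437 that share was 41.7%, 19.5% and 3.32% in control, 11.7%, 48.8% and 53.0% in CeD, and 42.9%, 6.22% and 17.4% in CeD+GR. For mt-Co2 and Gm28661 it was 55.9%, 80.3% and 26.6% in control, 86.1%, 49.6% and 43.2% in CeD, and 39.9%, 29.7% and 52.6% in CeD+GR. The mt-Atp6 share ranged from 15.7% to 75.7%, the mt-Nd3 share from 21.8% to 87.6% and the mt-Nd4l share from 60% to 89.6%. In 4 of these 5 pairs, all but that of mt-Nd3, the lowest 2 shares were those of control 3 and CeD+GR 2. The highest share was in CeD 1 for mt-Co2 and mt-Nd3, in CeD+GR 3 for mt-Atp6, in CeD 3 for mt-Co3 and in CeD 2 for mt-Nd4l. The spread within a group differed between pairs: the CeD+GR shares of mt-Nd3 were 77.9% to 85.7% and its control shares 21.8% to 79.5%. The widest 95% counting interval of these shares was 8.52 percentage points to either side. For mt-Co1 and mt-Nd4, whose copies cover only part of the gene, over 99% of the pair's reads were on the mitochondrial gene in every library.

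**Figure D3:**
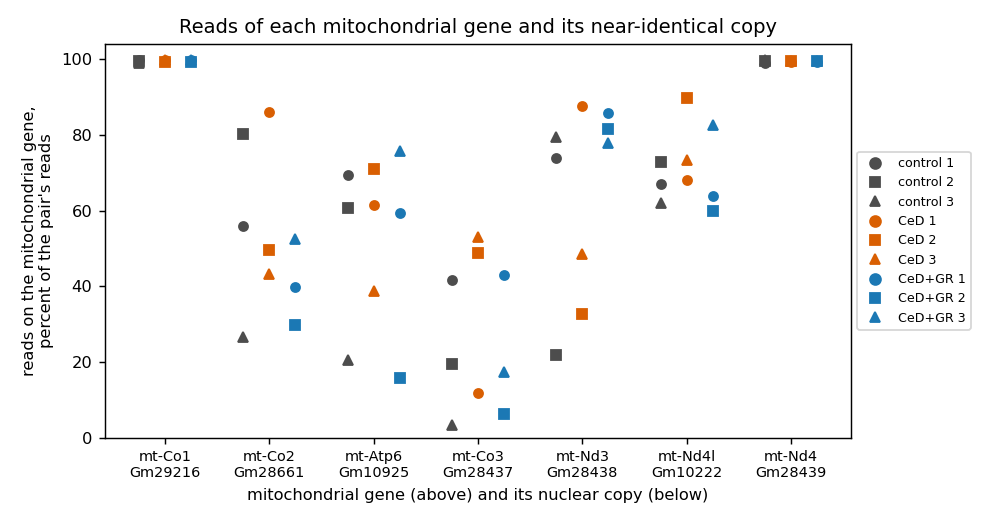
Reads assigned to the mitochondrial gene as a percent of the reads of the gene and its near-identical nuclear copy together (vertical axis), for 7 pairs in each of the 9 libraries. Points of mt-Co1 and mt-Nd4 lie above 99%, while those of mt-Co3 spread from 3.32% to 53.0% and those of mt-Co2 from 26.6% to 86.1%.

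Adding the copy's reads to its gene narrowed the range over libraries for mt-Co2, from 6.97-fold to 2.31-fold, which is below that of mt-Co1 (2.71-fold). It narrowed that of mt-Atp6 from 10.6-fold to 5.97-fold, of mt-Co3 from 19.7-fold to 15.5-fold and of mt-Nd4l from 10.3-fold to 7.09-fold. For mt-Nd3 it widened the range from 4.24-fold to 17.0-fold, because Gm28438 had 1042 FPKM in control 2 and 9.75 to 201 FPKM in the other libraries. The summed level stayed below the 7 abundant mRNAs: the pair means were 1025 FPKM for mt-Co3, 659 FPKM for mt-Co2, 595 FPKM for mt-Atp6, 297 FPKM for mt-Nd3 and 80.3 FPKM for mt-Nd4l, against 2946 FPKM for mt-Nd5. The 7 copies together took 0.0450% to 0.184% of the reads on genes. Reads that match several places and were counted for neither are not visible in these values, and their number was not tested.

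The rRNAs are the RNA core of the mitochondrial ribosome, mt-Rnr1 of the small and mt-Rnr2 of the large subunit. mt-Rnr1 (chrM:70-1024) had 251, 1195 and 823 FPKM in control, 261, 605 and 785 FPKM in CeD, and 504, 2108 and 554 FPKM in CeD+GR. mt-Rnr2 (chrM:1094-2675) had 599, 2311 and 1368 FPKM in control, 611, 786 and 1351 FPKM in CeD, and 1073, 2616 and 894 FPKM in CeD+GR. CeD+GR 2, the library with the high adipocyte genes, had the highest value of both, and control 1 and CeD 1 the lowest. mt-Rnr2 exceeded mt-Rnr1 in every library, by 1.24-fold to 2.39-fold. The summed level of the rRNAs was 2.47% to 8.59% of that of the mRNAs, and these values are those left by the removal of ribosomal RNA, so they do not give the rRNA content of the tissue.

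Of the 22 tRNAs, 11 averaged 50 FPKM or more. The highest was mt-Tp, the tRNA for proline, followed by mt-Tc, the tRNA for cysteine, both on the light strand. Their sequences are shown because they lead the class, with the anticodon in capitals and T for U, as GENCODE M21 gives the genes on the minus strand of chrM:15356-15422 and chrM:5192-5257 in GRCm38.
mt-Tp: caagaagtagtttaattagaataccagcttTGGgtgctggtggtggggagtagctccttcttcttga
mt-Tc: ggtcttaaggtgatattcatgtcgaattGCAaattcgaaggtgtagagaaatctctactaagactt
mt-Tp had 930, 2498 and 1171 FPKM in control, 909, 1821 and 1659 FPKM in CeD, and 1582, 1529 and 1485 FPKM in CeD+GR. mt-Tc had 266, 1310 and 979 FPKM in control, 250, 197 and 681 FPKM in CeD, and 526, 698 and 293 FPKM in CeD+GR. The CeD+GR values of mt-Tp lay close together and inside the range of both other groups.

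The other light-strand tRNAs of at least 50 FPKM on average were mt-Tn for asparagine, mt-Te for glutamate and mt-Ty for tyrosine. mt-Tn had 125, 523 and 230 FPKM in control, 103, 65.5 and 283 FPKM in CeD, and 243, 211 and 118 FPKM in CeD+GR. mt-Te had 86.8, 120 and 84.2 FPKM in control, 94.3, 62.4 and 173 FPKM in CeD, and 102, 202 and 82.4 FPKM in CeD+GR. mt-Ty had 63.9, 127 and 23.0 FPKM in control, 49.4, 83.9 and 105 FPKM in CeD, and 84.8, 93.8 and 45.6 FPKM in CeD+GR. The highest library was control 2 for mt-Tn and mt-Ty and CeD+GR 2 for mt-Te.

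On the heavy strand, mt-Tl1 and mt-Tl2 carry leucine. mt-Tl1 had 228, 443 and 143 FPKM in control, 244, 145 and 329 FPKM in CeD, and 296, 323 and 224 FPKM in CeD+GR. mt-Tl2 had 141, 415 and 146 FPKM in control, 118, 168 and 319 FPKM in CeD, and 137, 207 and 222 FPKM in CeD+GR. Both were highest in control 2. mt-Tw for tryptophan had 97.6, 210 and 53.1 FPKM in control, 72.8, 47.6 and 148 FPKM in CeD, and 128, 107 and 89.5 FPKM in CeD+GR. mt-Ts2 for serine had 58.6, 174 and 18.1 FPKM in control, 61.8, 72.9 and 114 FPKM in CeD, and 37.2, 95.8 and 72.6 FPKM in CeD+GR. Control 2 was again the highest library, and groups overlapped. mt-Th for histidine had 50.8, 126 and 35.4 FPKM in control, 31.0, 68.4 and 101 FPKM in CeD, and 46.3, 44.5 and 86.7 FPKM in CeD+GR. mt-Tg for glycine had 54.9, 103 and 55.8 FPKM in control, 30.5, 55.1 and 98.2 FPKM in CeD, and 34.2, 54.2 and 86.3 FPKM in CeD+GR. In these 6 heavy-strand tRNAs control 2 had the highest value, as in the abundant mRNAs.

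**Figure D4:**
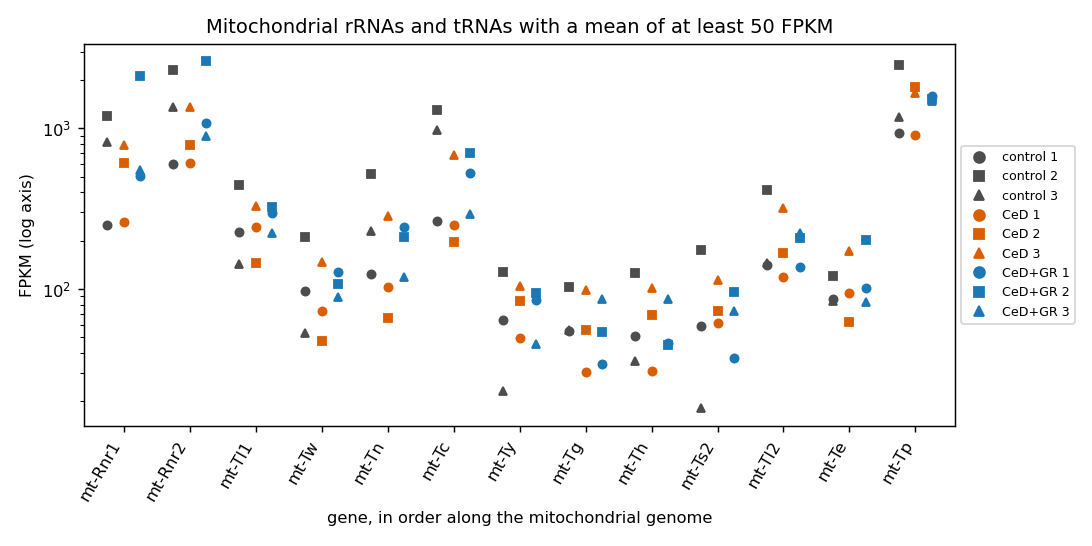
FPKM on a log axis of both mitochondrial rRNAs and of the 11 tRNAs that averaged 50 FPKM or more, in each library, in their order along the genome, with colours for groups and symbols for the library number. mt-Tp is the highest tRNA, at 909 to 2498 FPKM, and CeD+GR 2 is the highest library for both rRNAs.

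The remaining tRNAs were low. Those with means of 0.881 to 28.6 FPKM, 8 in all, entered the test, and mt-Td had 3 reads, all in CeD 3. mt-Tf and mt-Ts1 had 0 reads in all 9 libraries, which allows up to 3 reads or 2.39 to 3.06 FPKM per library. The tRNA genes are 59 to 75 bases long, shorter than the inserts of 150 to 200 bases that the labels' protocol selected, and all 22 together had 2471 to 6213 reads per library. The levels given for these genes therefore need not be the amounts of the tRNAs in the tissue. The part that the selection of inserts plays in them was not tested.

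Summed over the class, the 8 light-strand tRNAs exceeded the 14 heavy-strand tRNAs in every library, by 2.16-fold in control 1 to 5.15-fold in control 3. This order rests on mt-Tp. Without it the light-strand sum was below the heavy-strand sum in 4 libraries (control 1, CeD 1, CeD 2 and CeD+GR 3) and above it in 5, with ratios of 0.674 to 2.74. Among the mRNAs, mt-Nd6 can be set against mt-Nd5, its neighbour on the opposite strand, which it overlaps by 14 bases. The ratio of mt-Nd5 to mt-Nd6 was 0.745 to 1.13. The labels describe directional libraries, but no source used here says whether the counting used strand. Without it, reads of overlapping genes on opposite strands cannot be told apart. As both strands are transcribed as long RNAs, the same would hold for reads of either strand over a whole gene. The sums and ratios above, and the mt-Nd6 percent below, may then not separate the strands.

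As a percent of the summed FPKM of the 13 mRNAs, mt-Nd6 was 5.80%, 6.38% and 6.80% in control, 6.33%, 6.12% and 6.14% in CeD, and 6.15%, 6.88% and 7.20% in CeD+GR. The means were 6.33% ± 0.504 (SD, n = 3), 6.20% ± 0.120 and 6.74% ± 0.541. The values of each pair of groups overlapped, and CeD+GR 1 lay within the CeD range. By an exact two-sided permutation test the difference was -0.13 percentage points for CeD against control (p = 0.7), 0.55 for CeD+GR against CeD (p = 0.2) and 0.42 for CeD+GR against control (p = 0.4). Adjusted by Benjamini-Hochberg over the 3 comparisons the exact p-values were 0.7, 0.6 and 0.6, and 3 libraries against 3 cannot give a p below 0.1.

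CeD against control asks what differed in the model under enhanced gluten stimulation. No mitochondrial gene passed the test: limma on log2(FPKM + 0.5), with Benjamini-Hochberg adjustment over 14683 genes at 0.05, called 0 of the 34 members tested, and 0% of all genes tested. At an unadjusted p under 0.05 it gave 1 of the 34 (background 0.701%), the low tRNA mt-Tm, and limma-voom on the recovered reads gave 0. Groups did not overlap for 0 of the 34 (background 4.69%). The median log2 fold change of the 13 mRNAs was -0.14 beside 0.0024 over all genes tested, and 9 of the 13 values were negative, among them those of all 7 abundant mRNAs. This direction rests on single libraries: the median was 0.41 without control 2, with 0 of 13 values negative, and 0.14 without CeD 1, the library with the high pancreas genes. It was also positive, at 0.12 with 2 of 13 values negative, after quantile normalization.

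Within the complexes, the mRNA with the smallest unadjusted p in CeD against control was mt-Nd4l in complex I, with a log2 fold change of 0.77 ± 0.72 (SE), mt-Cytb in complex III with -0.15 ± 0.67, mt-Co3 in complex IV with 1.49 ± 1.14 and mt-Atp8 in complex V with 0.57 ± 0.82. mt-Nd6 had -0.14 ± 0.57. The adjusted p of limma was 1 for each of these. The value of mt-Co3 was 0.33 with the reads of its copy Gm28437 added, 0.53 without CeD 3, 2.30 without control 2 and 2.67 without CeD 1. The 95% interval of mt-Co1 reached from -1.62 to 1.61 on the log2 scale and that of mt-Cytb from -1.67 to 1.36. Changes inside these bounds are compatible with the values of these libraries. The bounds are not adjusted over all genes, so they are not a limit of detection, and larger changes could also have gone uncalled. The rRNAs had -0.33 ± 0.77 (mt-Rnr1) and -0.52 ± 0.63 (mt-Rnr2), and the median of the 19 tRNAs tested was -0.10.

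mt-Tm, the tRNA for methionine, had 0.796, 3.96 and 0 FPKM in control, 5.69, 3.02 and 6.16 FPKM in CeD, and 0, 0 and 0.886 FPKM in CeD+GR. These values rest on 1, 4 and 0 reads, 7, 3 and 7 reads, and 0, 0 and 1 read. Its log2 fold change on the log2(FPKM + 0.5) scale, which depends on the added 0.5 at such levels, was 1.88 ± 0.76 for CeD against control (unadjusted p = 0.0349, adjusted p = 1, limma). For this comparison the library numbers pair the libraries by the correlation of their deviations, and with the number as a block 0 of the 34 members had an unadjusted p under 0.05.

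CeD+GR against CeD asks what differed in the model when the nanoparticles were given first. limma called 0 of 34 members and 0% of all genes tested. At an unadjusted p under 0.05 it gave 1 member (background 2.89%), again mt-Tm, as did limma-voom. The mt-Tm log2 fold change was -2.90 ± 0.76 (unadjusted p = 0.00414, adjusted p = 1, limma), on 1 read in 3 CeD+GR libraries against 17 reads in 3 CeD libraries. Groups did not overlap for 2 of 34 members (background 6.05%), mt-Tm and mt-Co2, both lower in CeD+GR. Both comparisons share the CeD libraries, so the opposite signs of mt-Tm are not independent of each other.

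The median log2 fold change of the 13 mRNAs in CeD+GR against CeD was 0.22 beside 0.0082 over all genes, with 9 positive values, all 7 abundant mRNAs among them. It was -0.036 without CeD 1 and -0.037 without CeD+GR 3, the library with the high gastric genes, and -0.022 after quantile normalization. By complex, the smallest unadjusted p belonged to mt-Nd4l with -0.56 ± 0.72, mt-Cytb with 0.28 ± 0.67, mt-Co2 with -0.54 ± 0.64 and mt-Atp8 with -0.79 ± 0.82 (log2 fold change ± SE). mt-Nd6 had 0.35 ± 0.57. The adjusted p of limma was 1 throughout. The rRNAs had 0.75 ± 0.77 (mt-Rnr1) and 0.65 ± 0.63 (mt-Rnr2), with the highest level of both in CeD+GR 2, and the tRNA median was -0.0016. Copy reads bear on mt-Co2 here: its share of the pair's reads was 43.2% to 86.1% in CeD and 29.7% to 52.6% in CeD+GR, and the sum of mt-Co2 and Gm28661 was 453, 664 and 838 FPKM in CeD and 824, 502 and 586 FPKM in CeD+GR, which overlap.

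CeD+GR against control compares the treated model, under enhanced gluten stimulation, with the control libraries, where the stimulation was not enhanced. limma called 0 of 34 members and 0% of all genes, and 0 members had an unadjusted p under 0.05 (background 2.72%) with limma and 0 with limma-voom. Groups did not overlap for 0 members (background 5.58%). The median of the 13 mRNAs was 0.13 beside -0.0024 over all genes, with 10 positive values. It was -0.26 without control 1, -0.035 without CeD+GR 3 and 0.61 without control 2, and with array weights, which give less weight to more variable libraries, it was -0.31. The mRNAs with the smallest unadjusted p in each complex were mt-Nd6 with 0.21 ± 0.57, mt-Cytb with 0.13 ± 0.67, mt-Co3 with 1.11 ± 1.14 and mt-Atp8 with -0.22 ± 0.82 (log2 fold change ± SE, adjusted p = 1, limma). Here mt-Co3 had 0.85 with its copy's reads added, and 0.58 (without CeD+GR 1) to 1.92 (without control 2) with single libraries left out.

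**Figure D5:**
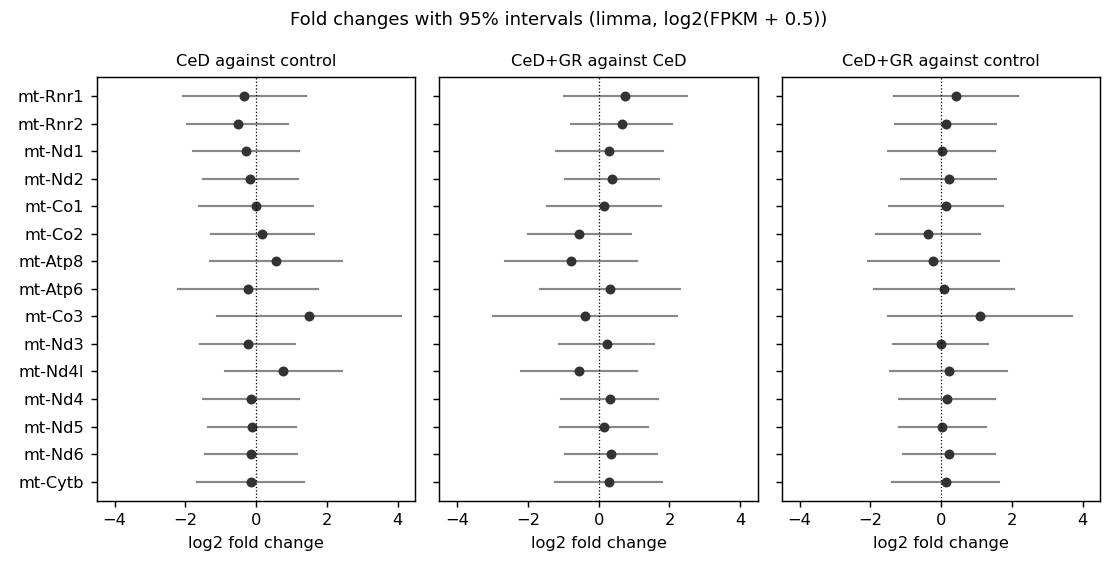
Log2 fold changes (horizontal axis, points) with 95% intervals (lines) of both rRNAs and the 13 mRNAs in the 3 comparisons, from limma on log2(FPKM + 0.5). Each interval shown includes 0, and that of mt-Co3 in CeD against control, from -1.11 to 4.09, is among the widest.

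The difference between groups was small beside that within groups. The mean log2 level of the 13 mRNAs had a pooled SD of 0.69 within groups, while the median fold changes were -0.14, 0.22 and 0.13. Restricted to the libraries numbered 2 and 3, which lack the high Paneth cell genes, the medians were -0.24, 0.13 and -0.075, again with 0 members called.

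The nuclear genes that serve the mitochondrial genome gave no calls either: limma called 0 in each list and comparison. Of 17 genes for transcription and replication of this DNA, all tested, 0 had an unadjusted p under 0.05, and the medians were -0.049 for CeD against control, 0.12 for CeD+GR against CeD and 0.16 for CeD+GR against control. Their summed level stayed within 51.9 to 63.5 FPKM over the libraries, a far narrower range than that of the mRNAs. The genes with the smallest p were Tefm, a transcription elongation factor, with 0.35 ± 0.35 (log2 fold change ± SE), Mterf4, a regulator of mitochondrial ribosome assembly, with 0.39 ± 0.22, and Rnaseh1, which removes RNA from RNA-DNA hybrids, with 0.50 ± 0.26, in the same order of comparisons.

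Of 28 genes for processing, stability and turnover of mitochondrial RNA, 27 were tested, with medians of 0.022, 0.033 and 0.061. The genes with the smallest p were the pseudouridine synthase Rpusd4 (-0.27 ± 0.19), the poly(A) polymerase Mtpap (0.23 ± 0.17) and Rpusd3 (-0.44 ± 0.31), which is related to Rpusd4. The 17 aminoacyl-tRNA synthetases, which charge the mitochondrial tRNAs, had medians of 0.085, -0.049 and 0.061. Their smallest p belonged to Pars2 for proline (0.51 ± 0.42) and, in the comparisons with CeD+GR, to Yars2 for tyrosine (0.74 ± 0.57 against CeD and 0.97 ± 0.57 against control). In both lists 0 genes had an unadjusted p under 0.05.

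The proteins of the mitochondrial ribosome, which translates the 13 mRNAs, had 78 of 79 genes tested. Their medians were -0.12 (61 of 78 values negative), 0.20 (67 positive) and 0.072 (52 positive). Mrpl45 had -0.32 ± 0.20, Mrps6 0.79 ± 0.37 and Mrpl23 0.55 ± 0.22 in the 3 comparisons. Mrpl23 was the single gene of the list with an unadjusted p under 0.05 (adjusted p = 1, limma).

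The nuclear subunits of the same respiratory complexes had 73 of 74 genes tested. Their medians were -0.20 in CeD against control and -0.18 in CeD+GR against control, with 66 of 73 values negative in each, and 0.020 in CeD+GR against CeD (39 positive). Over all 14683 genes tested, 7283 values in CeD against control and 7386 in CeD+GR against control were negative. These 2 comparisons share the control libraries. Among markers of cell types limma called 0 genes in these comparisons. The 11 enterocyte markers had a median of 0.099 in CeD against control (8 positive) and -0.48 in CeD+GR against control (11 negative). The 6 plasma cell markers had -0.49 and -0.41 (6 negative in each), and the 7 T cell markers -0.59 (7 negative) and -0.39 (6 negative). The 6 goblet cell markers had 0.30 (6 positive) and -0.38 (5 negative), and the 8 smooth muscle markers 0.36 (6 positive) and -0.63 (7 negative). The 7 adipocyte markers had 0.35 (5 positive) and 1.22 (7 positive), and 4 erythroid markers 0.85 and 1.52 (4 positive in each). Medians were 0.10 and -0.029 for Paneth cell, 0.79 and -1.89 for pancreas, and 0.038 and 3.57 for gastric markers. The 2 brown adipocyte markers tested had -0.35 and 0.046. The part of these lists in the values of the respiratory subunits was not tested. The smallest p belonged to Atp5k, a small subunit of complex V, with -0.65 ± 0.48 in CeD against control, and to Ndufs1, an iron-sulphur subunit of complex I, with -0.42 ± 0.23 against CeD and -0.50 ± 0.23 against control. The mean log2 level of this list was 6.001, 6.86 and 6.79 in control, 5.97, 6.60 and 6.49 in CeD, and 6.42, 6.40 and 6.26 in CeD+GR. Control 1 and CeD 1 were lowest and control 2 highest, as for the abundant mitochondrial mRNAs, but CeD+GR 3 was high in mitochondrial mRNA reads, behind only control 2, and low here, above only control 1 and CeD 1.

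The 13 markers of mitochondrial mass, proteins of the matrix and membranes used to gauge how much of the organelle is present, had medians of -0.0098, -0.10 and -0.17. Timm23, part of the protein import channel, had -0.45 ± 0.61 in CeD against control, and citrate synthase (Cs) had -0.41 ± 0.28 in CeD+GR against control. The summed level of the 13 was 901 to 1375 FPKM, lowest in CeD+GR 3 (901) with CeD+GR 2 close to it (910). By mean log2 level, CeD+GR 2 was lowest (4.99), then CeD 3 (5.32) and CeD+GR 3 (5.52). In these libraries the mitochondrial mRNAs were not low by share of reads, at 7.03%, 6.89% and 7.35%.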

How the data were processed

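RNA of 9 duodenum libraries was analysed from 1 table of FPKM per gene as deposited by the authors. The labels' protocols describe rRNA removal followed by a directional library kit. The submitters' processing notes name, without roles, the build mm10 and the tools featureCounts 1.5.0-p3, HISAT2 2.0.5, DESeq2 1.20.0 and fastp. No source used here gives the strand setting or the treatment of reads with several matches. FPKM times gene length was a whole number of reads for 100% of values above 0, within 0.1 reads. The library sizes implied, 14410550 to 18206426, differ from the reads on genes, and median-of-ratios factors of the FPKM were the same in all libraries.

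Groups were compared with limma 3.58.1 (R 4.3.3) on log2(FPKM + 0.5), 1 model over 9 libraries with a mean-variance trend, for the 14683 genes that averaged 0.5 FPKM or more. All p-values are two-sided. Copies were searched with blastn 2.17.0. mt-Nd6 was tested by exact permutation. Alternatives are in the closing section. The members and lists were chosen with earlier results of these data known. Values in every library are given for mRNAs, rRNAs and tRNAs of at least 50 FPKM on average, fold changes for the mRNA with the smallest p per complex and mt-Nd6, and for each pathway list the gene with the smallest p per comparison, of which 1 is not reported here. Fold changes of genes beyond this rule (mt-Tm, mt-Co1 and the rRNAs) are given after their values were seen. The listed names Atp5o and Rn45s had no single row and were left out. The statistics were tested on simulated data. Deviations of same-numbered libraries from their group means correlated at 0.71, 0.37 and 0.41 between control and CeD. The numbers pair these by the rule that every pair exceeds 0.1, although control 2 correlated more with CeD 3 (0.46) than with CeD 2.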

Additional observations from a re-analysis of the deposited data

How the results depend on the processing

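Each comparison was repeated under 25 alternatives: other pseudocounts, filters, scalings, fits and left-out libraries, and, chosen after seeing the data, the reads of near-identical nuclear copies added to their gene. limma called 0 members in every one of them, with smallest adjusted p of 0.39 in CeD against control, 0.35 in CeD+GR against CeD, and, for the third comparison, CeD+GR against control, 0.53. The median of the 13 mRNAs ranged from -0.44 to 0.41, -0.082 to 0.47 and -0.31 to 0.61, and changed sign in 3, 4 and 4 alternatives. These counts are not shares of 25, because several alternatives leave this median as it was. Among them are the filters, the replicate block, the fit without a trend and a left-out library of the group not compared. The median over all genes stayed within 0.028 of 0.

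In CeD against control, the members with an unadjusted p under 0.05 numbered 0 with a pseudocount of 0.1, a replicate block, limma-voom, replicates 2 and 3 only, protein-coding genes only (which leaves out mt-Tm), a fit of the groups compared only, or without CeD 1 and CeD+GR 3 plus a term for replicate 1. They numbered 2 with array weights and 1 to 3 without single libraries (3 without control 3). In CeD+GR against CeD they were 0 for protein-coding genes and for replicates 2 and 3 only, 3 without CeD 1 and CeD+GR 3, and 1 to 2 without single libraries (2 without CeD 3 or CeD+GR 3). In CeD+GR against control they were 2 without CeD 1 and CeD+GR 3, and 0 to 3 without single libraries (3 without control 3).

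Several fold changes, none called, changed sign, and the cause was not tested. With quantile normalization mt-Cytb had 0.062, -0.12 and -0.062 in the 3 comparisons and mt-Nd6 had 0.17 in CeD against control. With array weights mt-Cytb had -0.082 and -0.38 and mt-Nd6 -0.0077 and -0.31 in CeD+GR against CeD and against control, and mt-Atp8 had 0.070 against control. With replicates 2 and 3 only, mt-Cytb had -0.10 and mt-Nd6 -0.031 in CeD+GR against control. Without single libraries, CeD against control gave -0.58 to 0.32 for mt-Cytb, -0.46 to 1.31 for mt-Atp8 and -0.59 to 0.31 for mt-Nd6. CeD+GR against CeD gave -0.99 to 0.029 for mt-Nd4l and -0.036 to 0.48 for mt-Cytb. CeD+GR against control gave -0.23 to 0.66 for mt-Nd6, -0.30 to 0.61 for mt-Cytb and -1.25 to 0.53 for mt-Atp8. The mt-Nd6 percent of mRNA FPKM in CeD against control differed by -0.39 to 0.11 points.

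In the comparisons with CeD+GR the libraries share only a number: the pair numbered 3 had correlations of -0.12 (CeD) and -0.11 (control). Not every library correlated best with its own number, which was also so between control and CeD. There the replicate block gave 1 and 0 members at an unadjusted p under 0.05, with smallest adjusted p of 0.85 and 0.90. The block changed no call. Depth limits the low tRNAs and mt-Atp8 most.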
